A study of Mus musculus with 4 samples.

Results

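The levels of 10 genes of glycolysis and lactate metabolism (Hk2, Pfkl, Pfkp, Aldoa, Aldoc, Gapdh, Pgk1, Pkm, Ldha and Ldhb) were followed across the cell classes of the mouse retina and between 2 genotypes. The genes were taken by symbol, and all 10 were present among the 32285 genes counted in each of the 4 libraries. The 2 NLGF mice (1 female, 1 male) carried the App knock-in of that name, in which the endogenous amyloid precursor gene has a humanised amyloid beta stretch with mutations known from familial Alzheimer's disease, so that App expression is driven by its own promoter. The 2 WT mice (1 female, 1 male) were wild type. All were 30 days old, and 1 retina per mouse was dissociated and made into 1 droplet-based single-cell RNA-seq library (10x Genomics). The labels give genotype and sex but neither litter nor batch. The p-values of NLGF against WT measure the spread between these 4 libraries, in which animal and preparation cannot be told apart. Those of classes against each other and of the interaction come from fits with library as a term. They measure the spread that is left between class sums of the same 4 libraries.

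Glycolysis converts glucose to pyruvate. Hexokinase traps glucose, phosphofructokinase commits it to the pathway, aldolase splits the sugar, glyceraldehyde-3-phosphate dehydrogenase and phosphoglycerate kinase carry out the first energy-yielding steps, pyruvate kinase makes pyruvate, and lactate dehydrogenase interconverts pyruvate and lactate. Most steps have several isozymes encoded by separate genes. Photoreceptors are known for producing lactate from glucose even when oxygen is present, and Müller glia, whose processes reach through all retinal layers, have been discussed both as lactate producers and as lactate users.

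The files held 35191 barcodes with 19128388 to 23473093 UMIs (unique molecular identifiers, a count of captured mRNA molecules) per library, and 31559 cells were kept. Pairs of libraries shared 17 to 34 barcode sequences. Cells were clustered without the genes of the glycolysis list, and 18 of 19 clusters were named from marker genes, so each class name reads as "rod-like", "Müller-like" and so on. Rods made up 25860 cells in 6 clusters, each with rod markers such as Gnat1, Rp1 or Pde6b among its 10 leading genes, and 2 of these clusters split mainly by sex, one being led by Tsix and Xist. Cones made up 683 cells led by Pde6h, Opn1sw and Arr3, and Müller glia made up 1441 cells with Glul, Rlbp1 and Apoe among the leading genes. The other classes were rod bipolar cells (698), cone bipolar cells (609), amacrine cells (602), endothelial cells (87) and microglia (80). Beside endothelial markers such as Cldn5 and Flt1, the endothelial cluster had the mural marker Rgs5 and the erythroid marker Hbb-bs among its 10 leading genes. A further 903 cells in 2 clusters, in which the rod and the cone bipolar marker lists both reached a score of 0.3, are called other bipolar cells. Each had 3 rod bipolar markers among its 10 leading genes, and the smaller also had the cone bipolar markers Scgn and Vsx1 there. With doublets kept, the larger other bipolar cluster took the cone bipolar list instead, so the name points to no single bipolar type. A cluster of 596 cells with markers of ganglion, horizontal and amacrine cells was not named and not tested. The Müller class joined a deep cluster (733 cells, median 9320 UMIs) and a shallow one (708 cells, median 808 UMIs) that also had Ttr, a pigment epithelium marker, among its 10 leading genes.

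Each class was first set against rods, with UMI counts summed per library and class. In Müller glia the lactate dehydrogenase gene Ldhb and the aldolase gene Aldoc were higher than in rods, while Hk2, Ldha, Pkm, Aldoa, Gapdh and Pfkl were lower. In cones Hk2 did not differ from rods past the threshold, Pgk1 and Ldhb were higher, and lower values were found for Pfkp, Pfkl, Ldha, Gapdh and Pkm. Bipolar and amacrine cells had more Pgk1 and Pfkp than rods and much less Hk2, and endothelial cells were lower for all 10 genes. The lower Gapdh in Müller glia and the lower Gapdh and Pkm in cones depended on a rod cluster of high mitochondrial share, described below.

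All 10 genes passed the filter on low counts in this fit of 13988 genes, and differences were called at an edgeR adjusted p below 0.05. In cones 2 members were higher and 5 lower, where 19.7% of all tested genes were higher and 32.5% lower. In Müller glia 2 were higher and 6 lower, against 36.6% and 38.6% of all genes. Rod bipolar cells had 2 higher and 8 lower (27.2% and 38.1% of all genes), cone bipolar cells 4 and 5 (30.2% and 36.7%), and other bipolar cells 3 and 6 (30.7% and 37.0%). Amacrine cells had 4 higher and 6 lower (37.4% and 37.5%), endothelial cells 0 and 10 (26.7% and 32.7%), and microglia 1 and 9 (11.8% and 23.3%). A count near these shares is no result about the members. The median log2 difference of the 10 members was -0.20 in cones, -0.56 in Müller glia, -1.14 in rod bipolar cells, -0.22 in cone bipolar cells, -0.38 in other bipolar cells, -0.29 in amacrine cells, -2.39 in endothelial cells and -2.02 in microglia. The medians of all genes were -0.24, -0.10, -0.28, -0.16, -0.16, -0.05, -0.42 and -1.06 in the same order of classes. These differences use TMM scaling, which shifted the difference of a gene relative to library totals by a median over genes of -0.13 in cones, -0.08 in Müller glia, -0.10 in rod bipolar cells, -0.36 in cone bipolar cells, -0.32 in other bipolar cells, -0.34 in amacrine cells, -0.21 in endothelial cells and -0.35 in microglia. Levels are given as counts per 1000000 UMIs of the class in a library (CPM, on library totals), as mean ± SD over 4 libraries unless per-library values are given, and log2 differences are given ± SE.

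**Figure D1:**
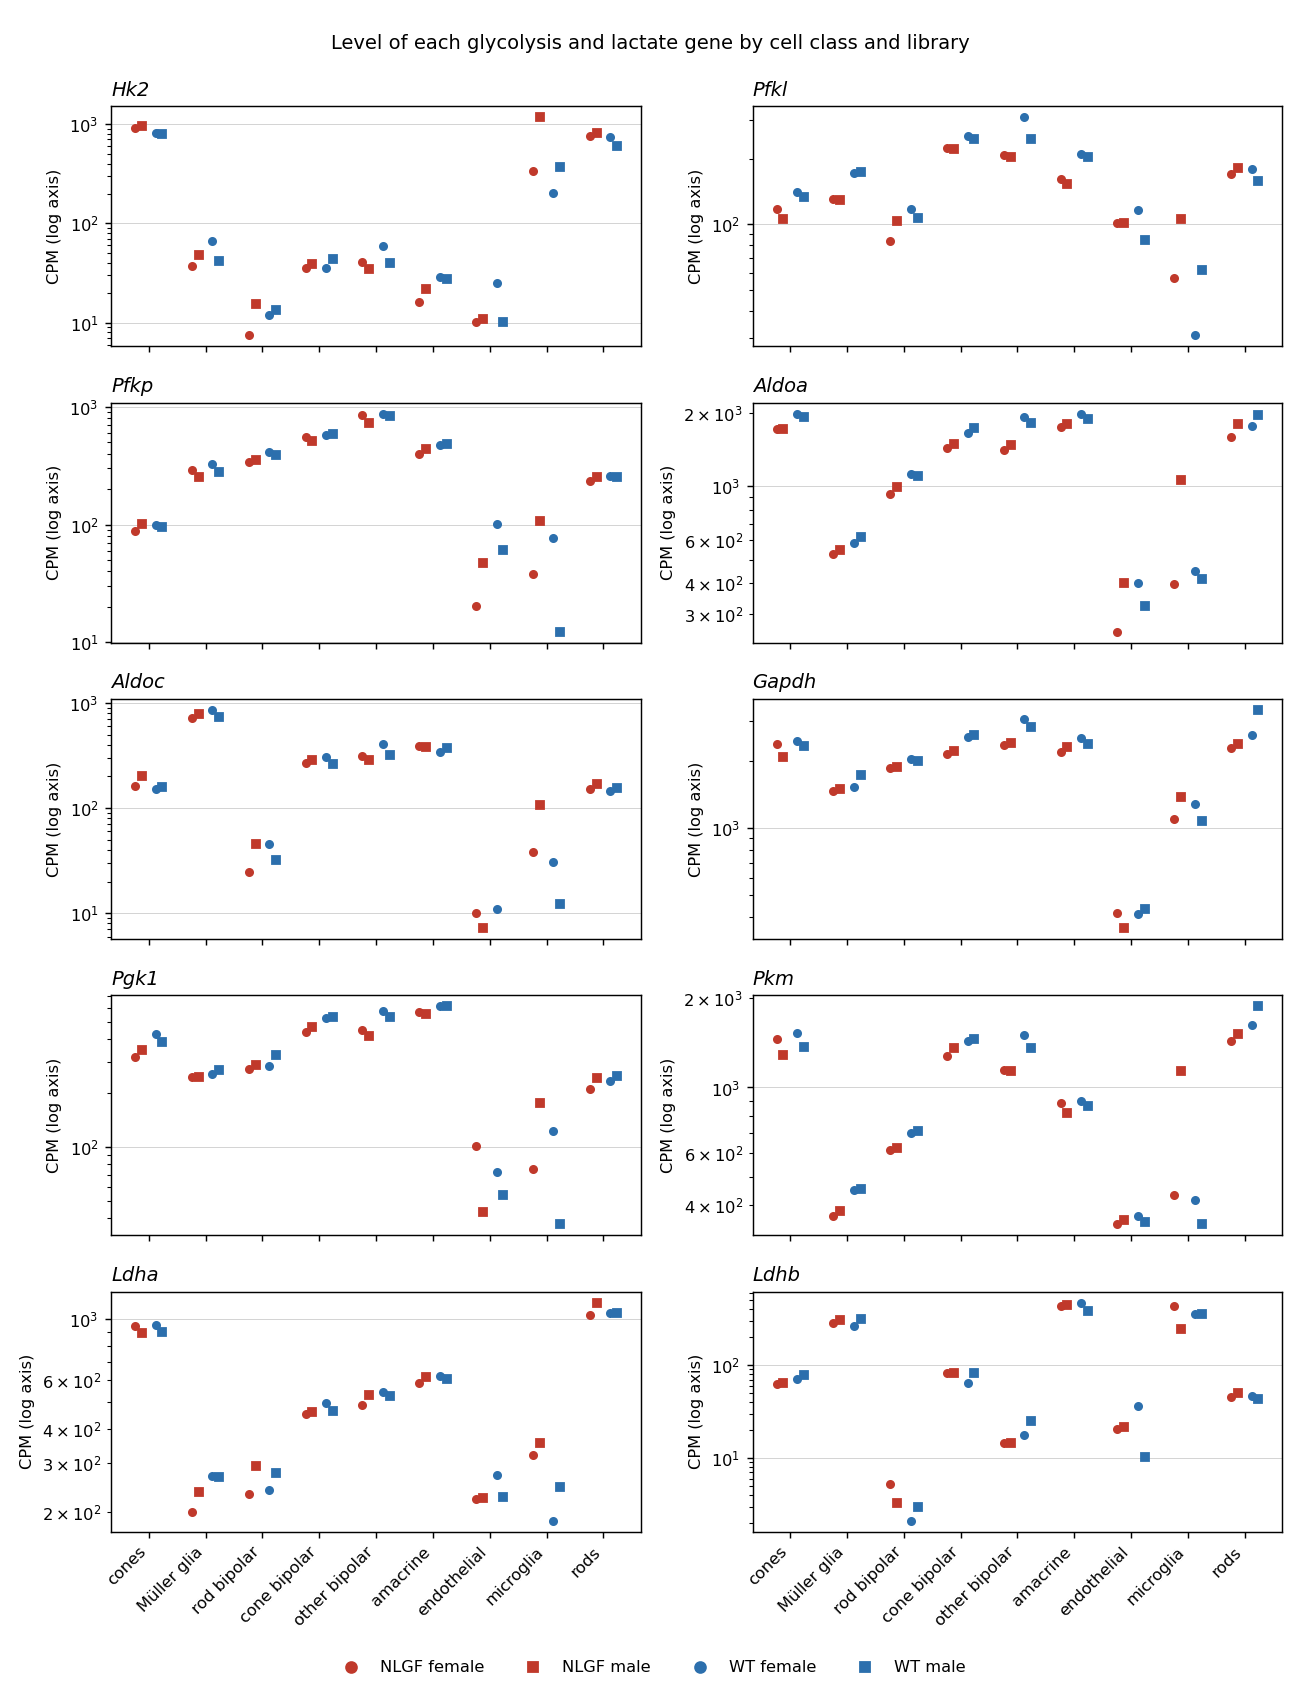
Level of each of the 10 genes by cell class, 1 point per library, on a logarithmic CPM axis; a library with no UMI of a gene in a class (Aldoc in the endothelial cells of the WT male) has no point. Hk2 was above 600 CPM in rods and cones and below 70 CPM in Müller glia, bipolar, amacrine and endothelial cells, whereas Aldoc was highest in Müller glia and Ldhb was high in amacrine cells, microglia and Müller glia.

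Stretches of 250 bases upstream of the annotated start are shown for the 4 members with the largest Müller against rod differences, Hk2 and Ldha (higher in rods and cones) and Aldoc and Ldhb (higher in Müller glia), so that their sequences can be read beside the levels. They are from RefSeq on build GRCm38.p6, 5′ to 3′ on the gene's strand. The Hk2 stretch lies at chr6:82774455-82774704 on the minus strand, Ldha at chr7:46845554-46845803 on the plus strand (the first of 2 starts RefSeq lists, not in a GENCODE M21 transcript), Aldoc at chr11:78322823-78323072 on the plus strand (the first of 2 starts) and Ldhb at chr6:142507958-142508207 on the minus strand. Capitals mark matches on either strand of ACGTG, the core bound by hypoxia-inducible factors (written CACGT where it reads on the other strand, and CACGTG where both strands match), and of TAATCC, the core bound by the photoreceptor factors CRX and OTX.
Hk2: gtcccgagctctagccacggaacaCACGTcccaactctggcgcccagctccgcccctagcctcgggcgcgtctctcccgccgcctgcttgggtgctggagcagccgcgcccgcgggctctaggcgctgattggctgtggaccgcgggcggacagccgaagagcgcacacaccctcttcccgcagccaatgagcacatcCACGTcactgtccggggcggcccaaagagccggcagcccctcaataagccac
Ldha: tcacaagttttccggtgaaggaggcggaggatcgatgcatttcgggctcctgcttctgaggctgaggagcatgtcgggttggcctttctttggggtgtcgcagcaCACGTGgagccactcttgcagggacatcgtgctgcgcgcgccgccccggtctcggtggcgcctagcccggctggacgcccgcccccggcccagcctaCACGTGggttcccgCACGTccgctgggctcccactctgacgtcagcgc
Aldoc: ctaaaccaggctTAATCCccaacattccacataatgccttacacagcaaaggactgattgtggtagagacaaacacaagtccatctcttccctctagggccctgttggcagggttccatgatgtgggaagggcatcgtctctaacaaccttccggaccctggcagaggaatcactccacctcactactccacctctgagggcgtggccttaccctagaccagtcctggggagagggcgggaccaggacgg
Ldhb: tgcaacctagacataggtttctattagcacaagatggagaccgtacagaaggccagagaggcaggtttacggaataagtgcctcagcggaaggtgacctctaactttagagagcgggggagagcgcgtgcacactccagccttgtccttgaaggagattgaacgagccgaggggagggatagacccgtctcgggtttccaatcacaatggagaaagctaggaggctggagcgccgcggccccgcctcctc
The Hk2 stretch held 2 matches of ACGTG and the Ldha stretch held 5 counted on both strands, 2 of its sites being CACGTG. The Aldoc stretch held none of these and 1 match of TAATCC, and the Ldhb stretch held neither motif. The stretch of the second Ldha start, not shown, held 0 matches of ACGTG and 1 of TAATCC. Of all 27025 RefSeq promoter stretches of the same length, 16.6% held ACGTG and 6.38% held TAATCC. Among the other members, the Pgk1 stretch held 2 matches of ACGTG and the Pfkp stretch 1 of TAATCC, 1 match of ACGTG stood at the second and at the third of 3 Aldoa starts and at the second of 2 Pkm starts, and the stretches of Pfkl and Gapdh held none of either. A match describes letters only and says nothing of whether a factor binds there.

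Hk2 encodes hexokinase 2, a hexokinase that docks on mitochondria and is known in the retina as a photoreceptor isozyme. The gene (ENSMUSG00000000628) lies at chr6:82725025-82774454 on the minus strand of GRCm38. In cones it had 905 and 963 CPM in the NLGF female and male, against 807 and 789 CPM in the WT female and male. In Müller glia it had 36.9 and 48.6 CPM in the NLGF female and male, against 66.6 and 41.8 CPM in the WT female and male. In rods it had 751 and 817 CPM in the NLGF female and male, against 746 and 605 CPM in the WT female and male. Every cone and rod library was thus above every Müller library, by at least an order of magnitude in the means. Microglia had 340.1 and 1169 CPM in the NLGF female and male, against 201 and 369 CPM in the WT female and male, a spread that rests on 12 to 30 cells per library. Means were 43.6 ± 10.5 CPM in other bipolar cells, 38.8 ± 4.07 in cone bipolar cells, 23.7 ± 5.91 in amacrine cells, 14.1 ± 7.53 in endothelial cells and 12.2 ± 3.45 in rod bipolar cells. The log2 difference from rods was -4.02 ± 0.12 in Müller glia (edgeR adjusted p = 1.41e-41) and -5.98 ± 0.15 in rod bipolar cells (adjusted p = 7.03e-45). In cones it was 0.12 ± 0.09 and did not pass (adjusted p = 0.252). In the order of levels, cones and rods, Müller glia and other bipolar cells (adjusted p = 0.0612), other and cone bipolar cells, amacrine and endothelial cells, and endothelial and rod bipolar cells did not differ past the threshold.

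Droplets can also take up RNA released by rods, the most numerous cells, so the low levels of Hk2 outside photoreceptors are not read as expression in these classes.

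Phosphofructokinase is the main control point of the pathway, and the 2 members differed in where they were found. Pfkl is the liver-type isozyme (ENSMUSG00000020277, chr10:77986947-78010083, minus strand). In cones it had 117 and 106 CPM in the NLGF female and male, against 141 and 134 CPM in the WT female and male. Müller glia had 130.3 and 129.9 CPM in the NLGF female and male, against 171 and 174 CPM in the WT female and male, so that both NLGF libraries were below both WT libraries. Rods had 170.5 and 181 CPM in the NLGF female and male, against 180.2 and 158 CPM in the WT female and male. Pfkl was lower than in rods in cones, with a log2 difference of -0.61 ± 0.09 (edgeR adjusted p = 6.85e-09). In Müller glia the difference was -0.28 ± 0.08 (adjusted p = 0.0016), a call lost without the NLGF male (-0.18, adjusted p = 0.0740) and with DESeq2 (-0.10, adjusted p = 0.375). Means were 242 ± 48.9 CPM in other bipolar cells, 236 ± 15.8 in cone bipolar cells, 181 ± 29.2 in amacrine cells, 103 ± 14.2 in rod bipolar cells, 101 ± 12.9 in endothelial cells and 63.9 ± 31.3 in microglia. In amacrine cells the difference from rods was -0.29 ± 0.08 (adjusted p = 0.000839, or 0.0560 without the NLGF male), was -0.11 with DESeq2 (adjusted p = 0.392) and turned to 0.057 on library totals. Other and cone bipolar cells, rod bipolar and endothelial cells, and endothelial cells and microglia did not differ past the threshold.

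Pfkp, the platelet-type isozyme (ENSMUSG00000021196, chr13:6579768-6648777, minus strand), was highest in other and cone bipolar cells among the classes. Other bipolar cells had 857 and 726 CPM in the NLGF female and male, against 873 and 836 CPM in the WT female and male. Cones had 88.7 and 101 CPM in the NLGF female and male, against 98.4 and 95.6 CPM in the WT female and male. Rods had 236 and 254 CPM in the NLGF female and male, against 259 and 254 CPM in the WT female and male. All other bipolar libraries were above all rod libraries, and all cone libraries were below them. The difference from rods was 1.39 ± 0.07 in other bipolar cells (edgeR adjusted p = 1.31e-26) and -1.52 ± 0.09 in cones (adjusted p = 1.92e-23). Means were 555 ± 33.5 CPM in cone bipolar cells, 446 ± 36.9 in amacrine cells, 373 ± 33.6 in rod bipolar cells, 287 ± 31.4 in Müller glia, 58.4 ± 41.6 in microglia and 57.5 ± 34 in endothelial cells. Müller glia and rods did not differ past the threshold (0.11 ± 0.08, adjusted p = 0.179), nor did amacrine and rod bipolar cells or microglia and endothelial cells. The amacrine class was not uniform, and its smaller cluster (164 cells) had 819 ± 32.1 CPM, close to other bipolar cells, against 297 ± 35.9 CPM in the larger one (438 cells).

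Of the aldolase genes, Aldoa was lower and Aldoc higher in Müller glia than in rods. Aldoa encodes the muscle-type isozyme found in most tissues (ENSMUSG00000030695, chr7:126795234-126800751, minus strand). In cones it had 1719 and 1718 CPM in the NLGF female and male, against 1978 and 1929 CPM in the WT female and male. Müller glia had 529 and 548 CPM in the NLGF female and male, against 583 and 619 CPM in the WT female and male. Rods had 1593 and 1796 CPM in the NLGF female and male, against 1774 and 1958 CPM in the WT female and male. The Müller libraries were all below the rod libraries, with a log2 difference of -1.72 ± 0.08 (adjusted p = 4.19e-29), and cones and rods overlapped (-0.09 ± 0.08, adjusted p = 0.376). Means were 1857 ± 104 CPM in amacrine cells, 1655 ± 249 in other bipolar cells, 1582 ± 139 in cone bipolar cells, 1036 ± 91.3 in rod bipolar cells, 582 ± 321 in microglia and 345 ± 71.7 in endothelial cells. The amacrine difference from rods was -0.28 ± 0.08 with TMM scaling, -0.11 with DESeq2 (adjusted p = 0.134) and 0.064 on library totals, so its direction depends on the scaling. On library totals the calls in other bipolar cells (-0.11, adjusted p = 0.225) and cone bipolar cells (-0.17, adjusted p = 0.0548) were lost. Rods without cluster 2, the rod cluster of high mitochondrial share, had 1179 and 1398 CPM in the NLGF female and male. They had 1216 and 1135 CPM in the WT female and male. Cones, amacrine, cone bipolar and other bipolar cells were above these values in every library, and Müller glia and rod bipolar cells were below them. The position of rods among the classes thus depended on cluster 2, and this comparison was not tested. A second gene ID with the symbol Aldoa held 72 UMIs against 123041 of the one used.

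Aldoc encodes the brain-type aldolase, known as an astrocyte and Müller glia isozyme (ENSMUSG00000017390, chr11:78322968-78327781, plus strand). Müller glia had 715 and 780.1 CPM in the NLGF female and male, against 856 and 741 CPM in the WT female and male. Rods had 150.2 and 168 CPM in the NLGF female and male, against 146 and 155 CPM in the WT female and male. The groups of libraries were far apart, with a log2 difference of 2.24 ± 0.08 (edgeR adjusted p = 2.05e-35). Müller glia were also above amacrine cells, the next class, by 1.33 log2 units (adjusted p = 1.43e-22). Means were 369 ± 21.1 CPM in amacrine cells, 331 ± 53.3 in other bipolar cells, 279 ± 19.6 in cone bipolar cells, 169 ± 22.9 in cones, 46.8 ± 41.1 in microglia, 36.9 ± 10.4 in rod bipolar cells and 7.07 ± 4.97 in endothelial cells. Rod bipolar cells were -2.17 ± 0.12 from rods (adjusted p = 3.76e-25), lower than the 2 other bipolar classes. Amacrine and other bipolar cells, cones and rods, and microglia and rod bipolar cells did not differ past the threshold.

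Gapdh, glyceraldehyde-3-phosphate dehydrogenase and a common reference gene (ENSMUSG00000057666, chr6:125161715-125166467, minus strand), was not level across classes. Müller glia had 1468 and 1491 CPM in the NLGF female and male, against 1528 and 1728 CPM in the WT female and male. Rods had 2268 and 2371 CPM in the NLGF female and male, against 2618 and 3371 CPM in the WT female and male, with the WT male highest. All Müller libraries were below all rod libraries, with a log2 difference of -0.84 ± 0.08 (adjusted p = 4.07e-14). Rods without cluster 2 (5583 rods with a median of 9.23% mitochondrial UMIs) had 1227 and 1369 CPM in the NLGF female and male. They had 1318 and 1154 CPM in the WT female and male. Each of these values was below the Müller, cone, bipolar and amacrine values of the same library. The direction thus depended on cluster 2, and this comparison was not tested. Means were 2661 ± 342 CPM in other bipolar cells, 2382 ± 229 in cone bipolar cells, 2350.0 ± 139 in amacrine cells, 2308 ± 165 in cones, 1945 ± 89.6 in rod bipolar cells, 1208 ± 149.6 in microglia and 405 ± 32.9 in endothelial cells. The cone difference of -0.33 ± 0.08 (adjusted p = 0.000786) did not pass without the WT male (-0.16, adjusted p = 0.118) or with cells of at most 10% mitochondrial UMIs (-0.13, adjusted p = 0.179), and the other bipolar difference of -0.32 ± 0.08 was -0.15 with DESeq2 (adjusted p = 0.0658) and turned to 0.0060 on library totals. Gapdh has many processed pseudogenes in the mouse genome, and the counting of reads that match several copies is not described in the labels or headers.

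Pgk1, phosphoglycerate kinase 1 (ENSMUSG00000062070, chrX:106187100-106203699, plus strand), was highest in amacrine cells among the named classes. Amacrine cells had 570.0 and 554 CPM in the NLGF female and male, against 613 and 613 CPM in the WT female and male. Rods had 212 and 243 CPM in the NLGF female and male, against 234 and 248 CPM in the WT female and male. Every amacrine library was above every rod library, with a log2 difference of 0.98 ± 0.07 (edgeR adjusted p = 2.75e-19). Cones were also higher than rods (0.53 ± 0.08, adjusted p = 1.91e-08), whereas Müller glia were not (0.04 ± 0.08, adjusted p = 0.621). Means were 495 ± 72.6 CPM in other bipolar cells, 492 ± 45.1 in cone bipolar cells, 372 ± 48.3 in cones, 292 ± 23.4 in rod bipolar cells, 254 ± 10.8 in Müller glia, 103 ± 60.7 in microglia and 67.9 ± 25.4 in endothelial cells. The rod bipolar call (0.21 ± 0.08, adjusted p = 0.0148) was lost without the NLGF female (0.19, adjusted p = 0.0711) and with no filter on low counts (0.16, adjusted p = 0.103). Other and cone bipolar cells, cone bipolar cells and cones, rod bipolar cells and Müller glia, and microglia and endothelial cells did not differ past the threshold.

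Pkm encodes pyruvate kinase of muscle and brain (ENSMUSG00000032294, chr9:59656368-59679375, plus strand), and its M1 and M2 splice forms cannot be separated in counts per gene. Müller glia had 368 and 383 CPM in the NLGF female and male, against 449 and 452 CPM in the WT female and male, both NLGF libraries being below both WT libraries. Rods had 1441 and 1512 CPM in the NLGF female and male, against 1623 and 1881 CPM in the WT female and male, with the same order of genotypes. The log2 difference between Müller glia and rods was -2.05 ± 0.09 (edgeR adjusted p = 4.66e-32). Means were 1410.3 ± 104 CPM in cones, 1384 ± 82.7 in cone bipolar cells, 1289 ± 179 in other bipolar cells, 868 ± 35.6 in amacrine cells, 662 ± 50.2 in rod bipolar cells, 583 ± 369 in microglia and 355 ± 9.3 in endothelial cells. Cones were lower than rods by a log2 difference of -0.32 ± 0.08 (adjusted p = 0.000742), a call lost without the WT male (adjusted p = 0.0668). Rods without cluster 2, the rod cluster of high mitochondrial share, had 934 and 1009 CPM in the NLGF female and male. They had 947 and 909 CPM in the WT female and male. Cones, cone bipolar and other bipolar cells were above these values in every library, and Müller glia were below them. This comparison was not tested. Cone and other bipolar cells, amacrine and rod bipolar cells, and microglia and Müller glia did not differ past the threshold.

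The lactate dehydrogenase genes differed in where they were high, Ldha in rods and cones and Ldhb in amacrine cells, microglia and Müller glia. Ldha encodes the subunit that is known to favour making lactate from pyruvate (ENSMUSG00000063229, chr7:46841475-46855627, plus strand). Cones had 941 and 889.7 CPM in the NLGF female and male, against 952 and 897 CPM in the WT female and male. Müller glia had 199.8 and 236 CPM in the NLGF female and male, against 269 and 268 CPM in the WT female and male. Rods had 1031 and 1147 CPM in the NLGF female and male, against 1053 and 1048 CPM in the WT female and male. Rods were above cones in every library (-0.35 ± 0.07 for cones against rods, adjusted p = 3.95e-05), and Müller glia were lower still (-2.22 ± 0.08, edgeR adjusted p = 6.48e-37). Means were 608 ± 15.5 CPM in amacrine cells, 522 ± 23.6 in other bipolar cells, 468 ± 20.2 in cone bipolar cells, 277 ± 75.8 in microglia, 260.3 ± 28.8 in rod bipolar cells and 237 ± 23.9 in endothelial cells. At the low end, microglia, rod bipolar cells, Müller glia and endothelial cells did not differ from their neighbours in the order past the threshold.

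Ldhb encodes the subunit known to favour the use of lactate (ENSMUSG00000030246, chr6:142490249-142507957, minus strand). Amacrine cells had 434 and 448 CPM in the NLGF female and male, against 471 and 381 CPM in the WT female and male. Müller glia had 286 and 308 CPM in the NLGF female and male, against 266 and 313 CPM in the WT female and male. Rods had 45.3 and 50.1 CPM in the NLGF female and male, against 46.3 and 43.1 CPM in the WT female and male. Amacrine and Müller libraries were all several times higher than any rod library, by log2 differences of 2.89 ± 0.08 (adjusted p = 6.39e-42) and 2.59 ± 0.09 (edgeR adjusted p = 9.18e-39). Microglia, the resident macrophages, had 435 and 248 CPM in the NLGF female and male, against 356 and 357 CPM in the WT female and male, a log2 difference of 2.62 ± 0.23 from rods (adjusted p = 5.4e-16). Means were 78.1 ± 8.81 CPM in cone bipolar cells, 69 ± 6.85 in cones, 22.1 ± 10.8 in endothelial cells, 17.9 ± 4.88 in other bipolar cells and 3.39 ± 1.32 in rod bipolar cells. Müller glia and microglia did not differ past the threshold (adjusted p = 0.944), while Müller glia were lower than amacrine cells by a log2 difference of -0.30 (adjusted p = 0.00091). Rod bipolar cells were the lowest class, at -3.87 ± 0.23 from rods (adjusted p = 7.56e-25).

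Isozyme use was described as the share of 1 gene in the UMIs of a pair. Such a share also reflects how well each 3′ end was captured, so it is compared between classes and genotypes only. An exact sign-flip test over 4 libraries cannot go below a p of 0.125, so differences between classes are given ± SD over the libraries. RNA released by rods was not subtracted from these shares. Of the UMIs of Ldha plus Ldhb in Müller glia, Ldhb made up 58.9% and 56.6% in the NLGF female and male, against 49.6% and 53.9% in the WT female and male. In rods it made up 4.21% and 4.19% in the NLGF female and male, against 4.21% and 3.94% in the WT female and male. All 4 Müller libraries were thus near an even split, and all rod libraries were almost entirely Ldha. The Müller minus rod difference was 50.6 ± 3.95 percentage points and above 0 in 4 of 4 libraries. The Ldhb share was 6.99 ± 0.721% in cones, 1.31 ± 0.604% in rod bipolar cells, 14.3 ± 1.86% in cone bipolar cells, 3.3 ± 0.836% in other bipolar cells, 41.6 ± 2.04% in amacrine cells, 8.3 ± 3.08% in endothelial cells and 55.9 ± 10.4% in microglia. The cone bipolar value joined 2 clusters with shares of 18.2 ± 2.52% and 5.95 ± 1.74%.

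Of the UMIs of Aldoa plus Aldoc in Müller glia, Aldoc made up 57.5% and 58.7% in the NLGF female and male, against 59.5% and 54.5% in the WT female and male. In rods it made up 8.61% and 8.53% in the NLGF female and male, against 7.59% and 7.35% in the WT female and male. The Müller minus rod difference was 49.5 ± 2.01 percentage points, above 0 in 4 of 4 libraries, and no other class came near the Müller value. The Aldoc share was 8.48 ± 1.51% in cones, 3.43 ± 0.873% in rod bipolar cells, 15.1 ± 1.37% in cone bipolar cells, 16.7 ± 1.36% in other bipolar cells, 16.6 ± 1.52% in amacrine cells, 2.06 ± 1.62% in endothelial cells and 6.77 ± 2.86% in microglia. Both Müller clusters showed it, at 59.3 ± 2.35% in the deep cluster and 47.8 ± 2.09% in the shallow one.

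Hk2 made up 71.3 ± 2.22% of Hk1 plus Hk2 in cones and 62.9 ± 3.12% in rods, Hk1 being the hexokinase of most other neurons. By rod cluster the Hk2 share ran from 49 ± 3.41% in cluster 2 to 75.1 ± 2.17% in cluster 1. The order of cones and rods thus depended on the mix of rod clusters, which was not tested. The share was 80.7 ± 10.5% in microglia, 34.9 ± 5.08% in Müller glia, 3.56 ± 1.03% in rod bipolar cells, 10.2 ± 1.19% in cone bipolar cells, 9.45 ± 1.7% in other bipolar cells, 8.23 ± 1.43% in amacrine cells and 10.6 ± 5.41% in endothelial cells. High Hk2 shares were thus found in photoreceptors and microglia, and the Müller minus rod difference was -27.9 ± 4.47 percentage points, below 0 in 4 of 4 libraries. Pfkp made up 43.7 ± 3.52% of Pfkl plus Pfkp in cones and 59.2 ± 1.63% in rods. By rod cluster the Pfkp share ran from 48.4 ± 1.95% in cluster 2 to 79.1 ± 5.35% in cluster 4. Pfkp made up 65.6 ± 3.09% in Müller glia, 78.4 ± 1.3% in rod bipolar cells, 70.1 ± 0.685% in cone bipolar cells, 77.4 ± 2.75% in other bipolar cells, 71.2 ± 2.05% in amacrine cells, 34.2 ± 13.3% in endothelial cells and 44.5 ± 22.7% in microglia. Between genotypes, 2 against 2 libraries allow no exact two-sided permutation p below 0.333, so no share could pass a threshold of 0.05. Over 4 shares in 9 classes, both NLGF libraries were above both WT libraries in 11 of 36 cases and below them in 6. A share has no background of all genes, and the 9 classes come from the same 4 libraries. These counts are therefore no result about isozyme use. In Müller glia the cases were Ldhb (above) and Pfkp, at 69% and 66.1% in the NLGF female and male, against 65.8% and 61.5% in the WT female and male.

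**Figure D2:**
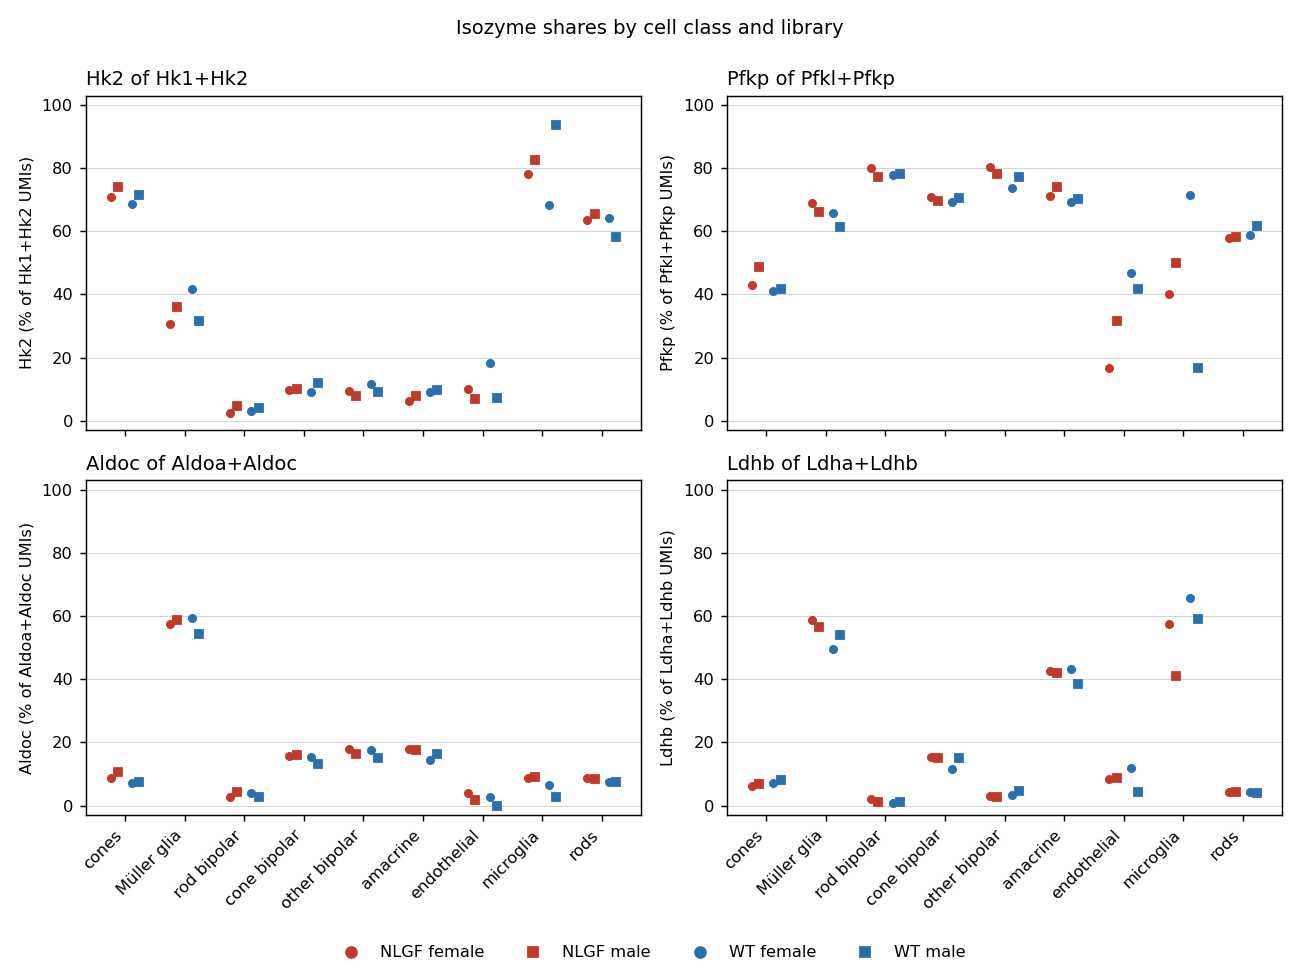
Share of Hk2, Pfkp, Aldoc and Ldhb in the UMIs of each isozyme pair by cell class, in percent, 1 point per library. Müller glia stand apart for Aldoc (54.5% to 59.5%), Müller glia, amacrine cells and microglia for Ldhb, and photoreceptors and microglia for Hk2.

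Because rods were so numerous, a class's level and its part of a gene's transcripts in the whole suspension differed. Rods held 43.2% of all UMIs, and 78.6 ± 1.69% of those of Hk2 and 62.7 ± 2.45% of those of Ldha. Cones held 7.95% of all UMIs and 17.1 ± 1.43% of those of Hk2. Müller glia held 9.78% of all UMIs, 28.7 ± 3.83% of those of Aldoc and 23.3 ± 6.13% of those of Ldhb. Amacrine cells held 9.45% of all UMIs and 32.8 ± 7.02% of those of Ldhb. These parts depend on how many cells of each class survived dissociation.

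The rod class was not uniform for the members. A cluster of 5583 rods (cluster 2) had a median of 9.23% mitochondrial UMIs and 2249 UMIs per cell, whereas the other rod clusters had 1.73% to 3.2% mitochondrial UMIs. Gapdh was 4631 ± 528 CPM in cluster 2, against 1014 ± 64.5 CPM in cluster 0 and 1083 ± 102 CPM in cluster 1, the 2 largest. Pkm was 2574 ± 165 CPM in cluster 2, against 819.6 ± 42.5 and 898 ± 88.2 CPM in clusters 0 and 1. Hk2 ran the other way, with 513 ± 86.6 CPM in cluster 2 against 1022 ± 64.6 and 1036 ± 40.5 CPM in clusters 0 and 1. The part of mitochondrial content in these differences was not tested.

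**Figure D3:**
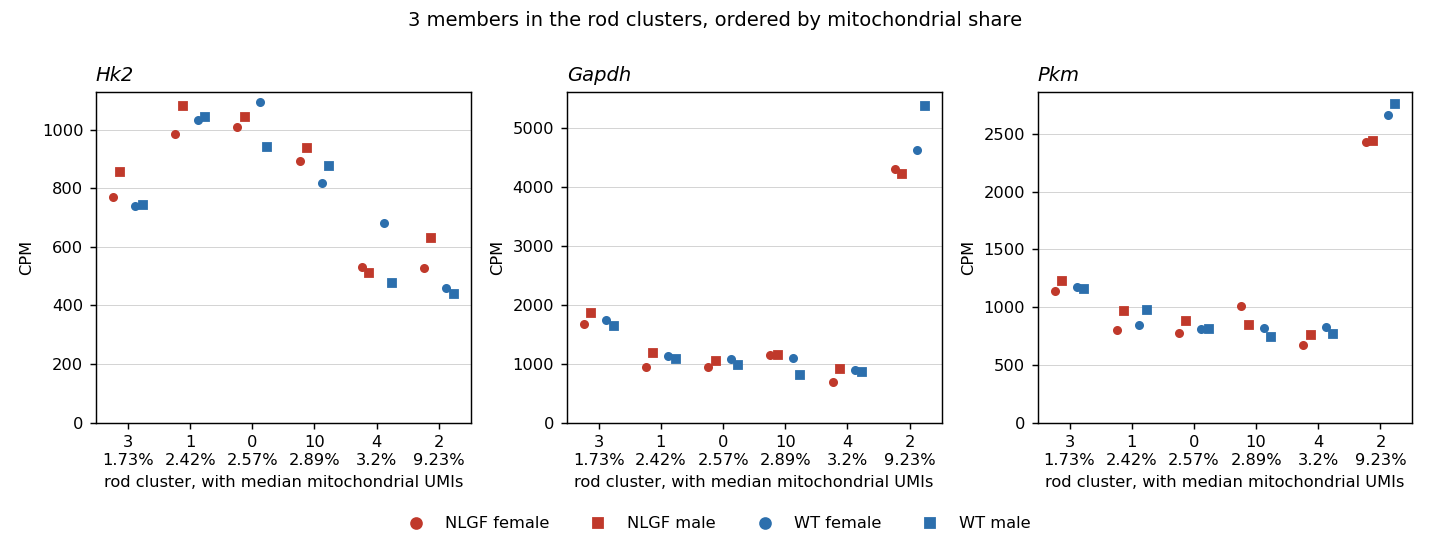
CPM of Hk2, Gapdh and Pkm in the 6 rod clusters, ordered by median mitochondrial share (given under each cluster number), 1 point per library, axes from 0. Cluster 2, with 9.23% mitochondrial UMIs, is highest for Gapdh and Pkm in all 4 libraries and among the 2 lowest clusters for Hk2.

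Across the 9 class means, the members most alike were Aldoa and Pkm (Pearson r of log2(CPM + 1) 0.92) and Aldoa and Gapdh (0.90), and Ldhb had no r above 0.47 with another member. Among 7569 genes with at least 50 CPM in 1 class, the patterns most like Hk2 were those of Gm44196 (0.98), March1 (0.98) and Ankrd33 (0.98). Most like Aldoc were Cspg5 (0.98), Olfm2 (0.95) and Enah (0.94), and most like Ldhb were Camk2n1 (0.92), Idh1 (0.90) and Cmtm4 (0.90). Tusc3 (0.96), Cdk5r2 (0.95) and Dctn1 (0.95) were most like Ldha, and Macrod2 (0.97), Rasgrf2 (0.97) and Psd (0.97) most like Pkm. For Pfkl they were Tmem41b (0.97), Tnrc6a (0.96) and Krit1 (0.96), for Pfkp Sec61a2 (0.99), Ring1 (0.97) and Ftx (0.96), and for Aldoa Arxes1 (0.99), Wbp4 (0.98) and Scamp5 (0.97). For Gapdh they were Zkscan2 (0.99), Hook1 (0.98) and Ahi1 (0.98), and for Pgk1 Magi2 (0.97), Enpp5 (0.97) and Ccl25 (0.97). These r describe 9 points that share libraries and depth, and the highest of 7569 values is high by selection.

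The surrounding pathway was followed in lists of genes chosen by function. Of 28 glycolysis genes, 21 were tested, and 8 were higher and 10 lower in Müller glia than in rods (median log2 difference -0.28, against -0.10 for all genes), where 36.6% of all genes were called higher and 38.6% lower. In cones 6 were higher and 7 lower (median -0.06, against -0.24 for all genes), where 19.7% and 32.5% of all genes were called. A count near such a share is no result about the list. Among those outside the 10 members, Hk1, the other common hexokinase, had 88.5 ± 3.99 CPM in Müller glia and 428 ± 7.19 CPM in rods (log2 difference -2.35 ± 0.09, adjusted p = 7.13e-36). Eno2, the neuronal enolase, had 19.6 ± 4 CPM in Müller glia and 111 ± 3.52 CPM in rods (-2.55 ± 0.11, adjusted p = 1.74e-31). Pfkm, the muscle-type phosphofructokinase, had 35.7 ± 6.2 CPM in cones (2.28 ± 0.15) and 38.1 ± 4.27 CPM in Müller glia (2.42 ± 0.14), both higher than the 6.71 ± 1.06 CPM in rods.

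Of 14 genes of glucose and lactate transport, 11 were tested, and 7 were higher and 3 lower in Müller glia than in rods, where 36.6% and 38.6% of all genes were called. Slc2a1, the glucose transporter GLUT1, had 268 ± 5.81 CPM in Müller glia and 52.5 ± 3.92 CPM in rods (2.28 ± 0.08, edgeR adjusted p = 1.22e-37). Bsg encodes basigin, which carries lactate transporters to the membrane, and had 2198 ± 385 CPM in Müller glia and 489 ± 31.7 CPM in rods (2.08 ± 0.09). Emb, for the related embigin, had 28.5 ± 2.09 CPM in Müller glia and 1.94 ± 0.635 CPM in rods (3.76 ± 0.23). Lower in Müller glia were Slc16a6, of the monocarboxylate transporter family (16.9 ± 4.85 CPM in Müller glia and 254 ± 19.8 CPM in rods, -3.93 ± 0.12), and Nxnl1, which gives the rod-derived cone viability factor (27.4 ± 5.77 CPM in Müller glia and 441 ± 17.4 CPM in rods, -4.11 ± 0.13). Of 16 genes of gluconeogenesis and glycogen, 12 were tested and 12 were higher in Müller glia than in rods (median 2.21). Of 14 genes outside glycolysis that respond to hypoxia-inducible factor 1, 12 were tested, 8 being higher and 2 lower. Of the lists for pyruvate fate (14 of 16 tested), regulators of glycolysis (11 of 13 tested) and the pentose phosphate branch (7 of 7 tested), 5, 4 and 1 genes were higher and 5, 6 and 2 lower. The 36.6% higher and 38.6% lower among all genes are the background of all these Müller counts.

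The second comparison asked whether the members differed between NLGF and WT retinas within each class. Of the 10 genes, only Pfkl passed the threshold in any of the 9 classes. It was lower in NLGF Müller glia, with a log2 fold change of -0.45 ± 0.09. Pfkl was about as much lower, without a call, in other bipolar cells (-0.45 ± 0.10) and amacrine cells (-0.43 ± 0.10). Both NLGF libraries lay below both WT libraries in these classes and in cones, rod bipolar and cone bipolar cells. The genotypes overlapped in rods (-0.02 ± 0.09), endothelial cells and microglia. Whether Müller glia differed from other bipolar or amacrine cells was not tested. Most of the differences that did not pass were negative in the neurons and Müller glia, and positive in microglia. All 10 members had a negative fold change in Müller glia and in other bipolar cells. The median mitochondrial share per cell was also lower in NLGF in some classes. In Müller glia it was 7.29% and 7.78% in the NLGF female and male, against 8.14% and 9.02% in the WT female and male. In cones it was 8.83% and 8.81% in the NLGF female and male, against 9.04% and 9.56% in the WT female and male. In rods it was 2.57% and 2.81% in the NLGF female and male, against 3.02% and 4.37% in the WT female and male. In each of these classes the genotypes did not overlap, and the part of this in the members' differences was not tested beyond the limit of 10% mitochondrial UMIs given below for Pfkl and the values without the rod cluster of high mitochondrial share.

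In Müller glia Pfkl had 130.3 and 129.9 CPM in the NLGF female and male, against 171 and 174 CPM in the WT female and male. Both NLGF libraries lay below both WT libraries. The log2 fold change was -0.45 ± 0.09 with an edgeR adjusted p of 0.0215. It was 1 of 47 genes called lower in this class, 0.422% of 11145 tested, while 0.646% were called higher. The fold change stayed between -0.40 and -0.47 under every setting tried, but the call did not hold without the NLGF female (adjusted p = 0.131), without the NLGF male (0.196), with DESeq2 (1.00), with sex as a term in the fit (0.0608), after thinning to the smallest library (0.0638) or with cells of at most 10% mitochondrial UMIs (0.0516). Each fit that leaves out a library has 1 library in 1 genotype, which is assumed to vary like the pair of the other. In the deep Müller cluster alone it was -0.43 (adjusted p = 0.0292). All 10 members were below 0 in Müller glia, with a median log2 fold change of -0.20 against 0.00 for all genes tested.

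Other members in Müller glia did not pass. Ldha had 199.8 and 236 CPM in the NLGF female and male, against 269 and 268 CPM in the WT female and male, all NLGF values being lower, with a log2 fold change of -0.34 ± 0.10 (edgeR adjusted p = 0.14, or 0.0229 with doublets kept). Pkm was at -0.30 ± 0.10 (adjusted p = 0.185) and Hk2 at -0.34 ± 0.20 (adjusted p = 0.592). Aldoc (-0.13 ± 0.11) and Ldhb (-0.01 ± 0.10), the members that were high in Müller glia, lay within 2 SE of 0. Gapdh was at -0.18 ± 0.10 (adjusted p = 0.541) and passed without the WT female (-0.27, adjusted p = 0.0367). For 6 of the 10 members the 2 NLGF libraries lay below both WT libraries and for 0 above, where 16.2% of all genes lay below and 25.3% above.

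Whether the Müller difference exceeded that in rods was tested as an interaction over 13617 genes. No member was called by edgeR, where 0.25% of genes were called higher and 0.0808% lower. The Müller minus rod difference of log2 fold changes was -0.43 ± 0.13 for Pfkl (edgeR adjusted p = 0.152), -0.48 ± 0.20 for Hk2 (0.461) and -0.31 ± 0.15 for Ldha (0.598), the 3 members with an unadjusted p below 0.05. Fits that leave out a library keep a single library in 1 genotype, and their interaction calls are not read as results.

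In other bipolar cells no member and no other gene was called by edgeR (0.0% in each direction of 10282 genes), although 7 members and 692 genes in all had an unadjusted p below 0.05. Aldoa had 1415 and 1473 CPM in the NLGF female and male, against 1917 and 1816 CPM in the WT female and male. Gapdh had 2346 and 2411 CPM in the NLGF female and male, against 3067 and 2822 CPM in the WT female and male. Pkm had 1147 and 1139.9 CPM in the NLGF female and male, against 1509 and 1362 CPM in the WT female and male. In each of these both NLGF libraries were below both WT libraries, and log2 fold changes were -0.40 ± 0.08 (adjusted p = 0.115), -0.33 ± 0.07 (0.132) and -0.35 ± 0.08 (0.134). Pfkl was at -0.45 ± 0.10 (0.132) and Pgk1 at -0.37 ± 0.08 (0.132). The median over the 10 members was -0.36 against 0.00 for all genes, and 7 members had NLGF libraries below both WT libraries, where 15.2% of genes did so and 20.8% lay above. DESeq2 called Aldoa, Gapdh and Pkm (adjusted p = 7.53e-05, 0.000482 and 0.00304), among 7 genes in all. Leaving out the WT male gave 6 calls in edgeR (Aldoa, Aldoc, Gapdh, Pfkl, Pgk1 and Pkm) and leaving out the WT female gave 2 (Aldoa and Gapdh), each with a single WT library and a spread from the NLGF pair. With sex as a term edgeR called 5 members, Aldoa, Gapdh, Pfkl, Pgk1 and Pkm (adjusted p from 0.00223 to 0.0150), among 31 genes. With no filter on low counts it called the same 5 (adjusted p from 0.000200 to 0.0101). The share of all genes called is not given for the fits without a filter or without a library. By cluster, 10 of 10 members were below 0 in the larger one (692 cells, median -0.34) and 8 of 10 in the smaller (211 cells, median -0.25).

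In rods no member was called by edgeR (2 had an unadjusted p below 0.05) or by DESeq2, where 0.0% of genes were called higher and 0.00805% lower by edgeR. Gapdh had 2268 and 2371 CPM in the NLGF female and male, against 2618 and 3371 CPM in the WT female and male, with a log2 fold change of -0.45 ± 0.13 (edgeR adjusted p = 0.51). Pkm was at -0.33 ± 0.12 (adjusted p = 0.541), and Hk2, which was higher in both NLGF libraries, at 0.14 ± 0.11 (adjusted p = 0.748). Gapdh was called by edgeR with sex as a term (-0.43, adjusted p = 0.0195, among 178 genes) and with no filter on low counts (-0.44, adjusted p = 0.000226). Without the WT female the calls were Gapdh (-0.66), Pkm (-0.47), Aldoa (-0.33) and Hk2 (0.25), in a fit where WT is the male alone and the spread comes from the NLGF pair. The rod cluster with high mitochondrial share made up 17.2% and 18.6% of rods in the NLGF female and male, against 20.3% and 29.8% in the WT female and male. It held 33.9% and 35.2% of rod UMIs in the NLGF libraries, against 39.3% and 52.5% in the WT libraries. Without that cluster Gapdh had 1227 and 1369 CPM in the NLGF female and male, against 1318 and 1154 CPM in the WT female and male, and the log2 ratio of mean CPM was 0.07, against -0.37 over all rods and -0.23 in the cluster alone. For Pkm the ratios were 0.07 without the cluster, -0.25 over all rods and -0.16 in the cluster, and for Hk2 they were 0.05, 0.21 and 0.37. In rods 3 members lay below both WT libraries and 1 above, where 11.5% and 31.9% of all genes did.

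The other neuronal classes gave no call among the members. In cones none of 9409 genes was called (0.0%), 8 of 10 members were below 0, and Hk2 was 0.22 ± 0.10 and Pfkl -0.31 ± 0.12. In rod bipolar cells none of 9304 genes was called (0.0%), and 8 of the 9 members that passed the filter were below 0, Ldhb having too few UMIs. In cone bipolar cells 9 of 10 were below 0, with 0.0946% of genes called higher and 0.0662% lower. In amacrine cells 8 of 10 were below 0, with 0.0268% of genes called in each direction, and Pfkl had 161 and 152 CPM in the NLGF female and male, against 210.1 and 203 CPM in the WT female and male, a log2 fold change of -0.43 ± 0.10 (edgeR adjusted p = 0.27, or 0.0182 with no filter on low counts). Members with NLGF libraries below both WT libraries numbered 4 for cones, 5 for rod bipolar cells, 7 for cone bipolar cells and 6 for amacrine cells, where 17.6%, 17.0%, 15.5% and 14.1% of all genes did. Those above numbered 2, 0, 0 and 1, where 17.8%, 18.5%, 19.9% and 18.8% did. Unadjusted edgeR p-values fell below 0.05 for 4 members (cones), 3 (rod bipolar), 4 (cone bipolar) and 3 (amacrine), and for 527, 570, 629 and 529 of all genes, while DESeq2 called 0 members in each of these classes.

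**Figure D4:**
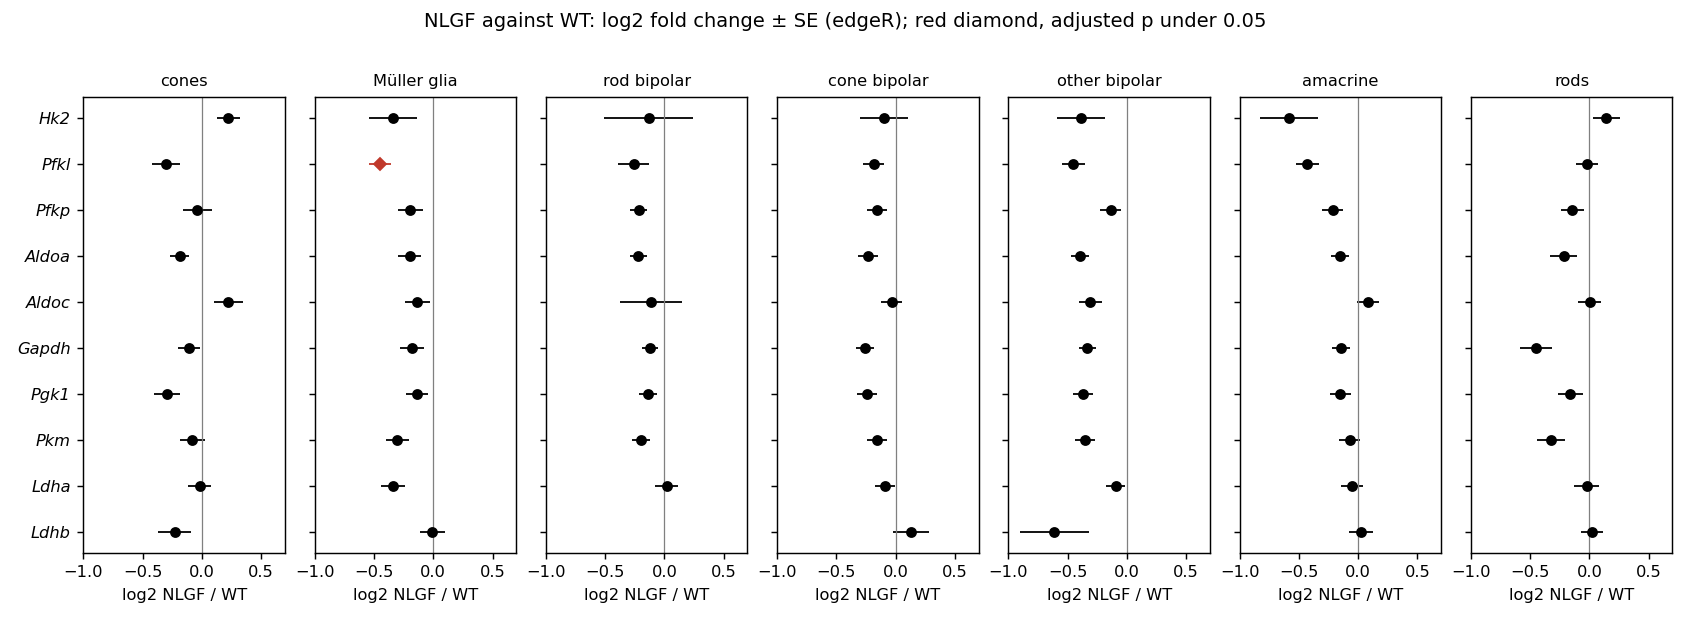
log2 fold change of NLGF against WT for each member in 7 cell classes, points with SE bars from edgeR; the grey line marks 0 and members that did not pass the filter have no point. Pfkl in Müller glia (-0.45, red diamond) is the only call, and all 10 points lie left of 0 in Müller glia and in other bipolar cells.

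In microglia none of 879 genes was called by edgeR or DESeq2 (0.0%, with 82 genes at an unadjusted edgeR p below 0.05) and all 6 members that passed the filter were above 0, with a median of 0.72 against 0.01 for all genes. Hk2 had 340.1 and 1169 CPM in the NLGF female and male, against 201 and 369 CPM in the WT female and male, so that the NLGF male stood far above the rest, at 12 cells. Pkm had 435 and 1134 CPM in the NLGF female and male, against 417 and 345 CPM in the WT female and male. Its log2 fold change was 1.08 ± 0.54 (edgeR adjusted p = 0.579) and that of Hk2 1.41 ± 0.63 (0.506). Without the NLGF female, which leaves that male alone against WT, log2 fold changes were 2.10 for Hk2, 1.67 for Pkm and 1.39 for Aldoa. That fit assumes that a lone library varies like the others, so its calls are not read as results. For 2 members both NLGF libraries were above both WT libraries, where 14.5% of genes were and 22.7% were below. In endothelial cells 6 of 7 members were below 0, with 0.0192% of 5206 genes called higher and 0.0768% lower, and 2 members had NLGF libraries below both WT libraries, where 18.2% of genes did and 17.0% lay above.

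Around the members, the lists showed 1 further call between genotypes. Bsg in Müller glia had 1879 and 1877 CPM in the NLGF female and male, against 2649.9 and 2388 CPM in the WT female and male, the NLGF values being lower by a log2 fold change of -0.46 ± 0.10 (edgeR adjusted p = 0.0190), for which no alternative was run. Of 28 glycolysis genes 19 were tested in Müller glia, with 0 called higher and 1 lower (Pfkl), and of 14 transport genes 9 were tested with 0 called higher and 1 lower (Bsg). In the lists for pyruvate fate, regulators of glycolysis, hypoxia response, gluconeogenesis and glycogen, and the pentose phosphate branch, no gene was called in any class.

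Some members overlap other annotated genes. In the annotation used (GENCODE M21 on GRCm38), Hk2 overlaps Gm17034, Pfkp overlaps Pitrm1, Aldoa overlaps Fam57b, Gapdh overlaps Iffo1 and Pkm overlaps Gm49759. No source used here states whether counting was stranded or took introns, so UMIs from such overlaps cannot be told apart.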

How the data were processed

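Single cells of 4 mouse retinas (2 NLGF, 2 WT, 1 female and 1 male each) were profiled with 10x Genomics 3′ libraries. The deposited values are unnormalized UMI counts for each gene in each barcode. Reads were processed with Cell Ranger 6.1.1, per the file headers, while Cell Ranger 3.1.0, STAR and the mm10 build stand in the submitters' processing notes. Strand and intron settings are not given in the sources used here, nor is a removal of doublets before deposit.

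Barcodes had at least 500 UMIs as deposited, and a minimum of 300 detected genes and a maximum of 20% mitochondrial UMIs left 33329 of 35191. Doublet scores came from simulated pairs in scanpy 1.11.5. The automatic threshold marked 2 cells, so the 1770 highest-scoring cells (an assumed rate of 6%) were removed instead, leaving 31559. Counts were scaled to 10000 per cell and log-transformed, and 2000 variable genes, less 2 of the glycolysis list, gave 30 principal components, 20 neighbours and Leiden clusters at resolution 1 (leidenalg 0.10.2). A cluster took the marker list with most genes among its 10 leading genes (with at most 1 there, the list with the best score), given 3 or more markers detected and a score of at least 0.3 (the mean over markers of the level relative to the highest cluster). It was called other bipolar where the rod and the cone bipolar lists both reached 0.3, and left unnamed where it had 2 or more of its own list and as many of other lists among the 10. These limits were set after the data were seen. UMI counts were summed per library and class and tested with edgeR 4.0.16 (quasi-likelihood, TMM scaling, filterByExpr, R 4.3.3), adjusted over all genes with Benjamini-Hochberg at 0.05. Classes were set against rods in 1 fit over 9 classes with library as a term, and NLGF against WT was fitted class by class. DESeq2 1.42.0 and the other alternatives below were run beside it. The edgeR scripts were tested on simulated data. With 2 libraries per genotype an exact permutation test cannot go below a p of 0.333. Precision is limited by the 4 libraries and, in microglia and endothelial cells, by 12 to 30 cells per library. The members and gene lists were chosen with earlier results of these data known. Named in the text are all members, list genes called between genotypes, glycolysis and transport genes at least 4-fold different from rods in Müller glia or cones (from 50 CPM in any class), and the 3 genes most like each member. Amino acid sequences were not used here.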

Additional observations from a re-analysis of the deposited data

Results flagged for a closer look

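For 4 members both NLGF libraries lay on one side of both WT libraries in one cell class and on the other side in another, and whether these classes differ was not tested. The share of all genes that do so was not counted, so the 4 are no result about the members. In single classes, 11.5% to 22.7% of all genes lay below both WT libraries and 14.5% to 31.9% above. Hk2 had a log2 fold change of 0.14 in rods and 0.22 in cones, with both NLGF libraries higher, and of -0.58 in amacrine cells, with both lower. The amacrine levels were 16.2 and 21.8 CPM in the NLGF female and male, against 29.2 and 27.6 CPM in the WT female and male, and are not read as expression because droplets can take up RNA released by rods. Aldoc had 0.22 in cones and 0.083 in amacrine cells, and -0.31 in other bipolar cells. Pkm had 1.08 in microglia, against -0.33 in rods, -0.30 in Müller glia, -0.19 in rod bipolar cells, -0.16 in cone bipolar cells and -0.35 in other bipolar cells. Ldha had 0.64 in microglia, against -0.34 in Müller glia, -0.091 in cone bipolar cells and -0.17 in endothelial cells. None of these 16 values passed the adjusted threshold in edgeR. The microglial values rest on 16 and 12 cells in the NLGF female and male, against 22 and 30 in the WT female and male.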

How the results depend on the processing

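Among fold changes, shares and ratios by cluster under the alternatives, 1131 values were counted as unchanged. Of the fold changes, 23 lost a call, 2 gained one and 9 changed sign, and 23 shares or ratios moved. A fold change was unchanged if it kept its direction and side of the threshold. A share was unchanged if it stayed within its SD over the libraries. Leaving out a library cannot move a mean share that far, so such share values could not be counted as moved. Pfkl was the 1 member called lower in Müller glia, and this count was 0 with DESeq2, 0 after thinning, 0 with at most 10% mitochondrial UMIs, 2 with doublets kept and 0 to 2 on leaving out each library. Over 9 classes the count of member and class pairs called lower was 1, and it was 3 with DESeq2, 8 with no filter on low counts, 2 with doublets kept, 0 after thinning, 0 with at most 10% mitochondrial UMIs and 0 to 7 on leaving out each library. Pairs called higher numbered 0, and 0 to 3 on leaving out each library. Interaction calls numbered 0, and 0 to 2. The counts under the alternatives stand without a share of all genes and are no result about the members. The cause of these changes was not tested. Of the sign changes, 6 were in small values that were not called. Aldoc in Müller glia (-0.13) was 0.062 with at most 10% mitochondrial UMIs. Ldhb in Müller glia (-0.01) lay between -0.12 and 0.13 on leaving out each library (0.13 lacking the WT male, 0.044 lacking the NLGF female), and was 0.032 on library totals, 0.0064 with doublets kept and 0.0059 in the deep cluster. The other 3 were calls against rods that turned on library totals, amacrine Aldoa (-0.28, then 0.064), amacrine Pfkl (-0.29, then 0.057) and other bipolar Gapdh (-0.32, then 0.0060). The Müller minus rod difference in the Aldoc share was 49.5 percentage points, and 41.4 as a mean over cells. A planned subtraction of RNA released by rods from the shares is not reported here.

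The labels number no replicates, and pairing rests on sex alone. With sex as a replicate block, 0 members were called lower in Müller glia (Pfkl adjusted p = 0.0608), 5 in other bipolar cells and 1 in rods (Gapdh), 6 pairs in all. Genes called were 82 in Müller glia, 31 in other bipolar cells and 178 in rods. Deviations of same-sex libraries correlated at 0.53 to 0.74 in rods, cones, Müller glia, bipolar and amacrine cells, at -0.47 in endothelial cells and at -0.03 in microglia. With 2 pairs and no litter or batch in the labels, it cannot be told whether same-sex libraries share more than a sex.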
